A study of Mus musculus with 8 samples.

Results

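The genes described here are 10 surface markers with which stages of mouse fibroblast reprogramming have been followed: *Thy1*, *Cd44*, *Icam1*, *Fut4*, *Alpl*, *Ly6a*, *Ly6c1*, *Eng*, *Nt5e* and *Cd34*. They were chosen by gene symbol, all 10 had a row among the 18990 genes of the expression table, and all 10 passed the filter for testing (1 CPM or more on average, where CPM are the reads of a gene scaled to a common library total). The cells were wild-type BL6 (C57/BL6 in the study's methods) primary mouse embryonic fibroblasts (MEFs), transduced with a doxycycline-inducible tet-STEMCCA lentivirus that carries Oct4, Sox2, Klf4 and c-Myc, and with an rtTA lentivirus. All groups received 40 nM of pooled siRNAs, then doxycycline with a GSK3 inhibitor, an ALK5 (TGF-beta receptor) inhibitor, ascorbic acid and LIF. The siRNAs were against *Ncor1* or *Oct4* (*Pou5f1*), and RNA was collected at day 3 or day 6 of reprogramming, counted from the doxycycline medium and not from the transfection, which gave 4 groups (siNcor1 day 3, siOct4 day 3, siNcor1 day 6 and siOct4 day 6) of 2 biological replicates each. Libraries of a non-targeting control were not analysed here, so each knockdown is compared with the other knockdown and not with unperturbed cells.

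When MEFs are driven towards induced pluripotent stem cells, surface proteins of the fibroblast are lost and others are gained before the pluripotency network is in place. THY1, a GPI-anchored glycoprotein, is a classical fibroblast marker that disappears early. CD44, the main hyaluronan receptor, and ICAM1, a ligand of leukocyte integrins, have been used together to sort intermediates, which lose CD44 and later gain ICAM1. SSEA1, a fucosylated glycan that FUT4 and FUT9 can build, and alkaline phosphatase, the enzyme encoded by *Alpl*, are gained on the way. SCA1 (*Ly6a*) and LY6C1 are small GPI-anchored proteins of the LY6/uPAR family. Endoglin (*Eng*, a TGF-beta and BMP9 co-receptor), CD73 (*Nt5e*, which makes adenosine from AMP outside the cell) and CD34 (a sialomucin) are markers of stromal, endothelial or progenitor cells.

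The siRNA targets were examined first. *Ncor1* was lower in siNcor1 than in siOct4 at day 3 (siOct4 minus siNcor1 0.74, SE 0.12, limma adjusted p = 0.0139). Its log2-cpm on that day was 7.08 and 7.20 in siNcor1 and 7.82 and 7.94 in siOct4. The day 6 difference, −0.042, did not pass the test, with levels of 7.26 and 7.28 for siNcor1 beside 7.33 and 7.13 for siOct4. Day 6 minus day 3 of *Ncor1* was −0.65 for siOct4 (SE 0.12, limma adjusted p = 0.000748). The siNcor1 libraries, at 0.14, did not pass that comparison (SE 0.12, limma adjusted p = 0.399). The smaller gap at day 6 thus came with a lower level in siOct4. *Pou5f1* did not pass the test at day 3 and was higher in the siOct4 libraries at day 6, and earlier times were not analysed here. At day 3 it was 7.63 and 7.68 in siNcor1 and 7.53 and 7.62 in siOct4 (−0.076, adjusted p = 0.941), and at day 6 it was 7.55 and 7.32 in siNcor1 but 9.45 and 8.97 in siOct4 (1.78 higher, adjusted p = 0.000109). Transcripts from the cassette and from the cell's own *Pou5f1* cannot be told apart in these gene-level values, and the groups are called the libraries labelled siOct4, or siOct4-labelled, in what follows. Reads on genes numbered between 7735742 and 16445192 per library, and a gene with 3 reads had between 0.174 and 0.380 CPM. One RNA, *Gm26917*, took 15.5% to 16.6% of the reads at day 3 and 20.3% to 29.1% at day 6.

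A promoter window of 250 bases before the RefSeq start site (GRCm38.p6) could be matched for 8 of the 10 genes, not for *Thy1* and *Ly6a*. Shown are the windows of the genes that changed in at least one comparison and whose window holds no annotated exon (GENCODE M21; for *Ly6c1* this is the upstream one of 2 start sites), written 5′ to 3′ on the strand of the gene and ending at the base before the start site. Capitals mark matches to the motifs searched on both strands.
Icam1, chr9:21015690-21015939, plus strand: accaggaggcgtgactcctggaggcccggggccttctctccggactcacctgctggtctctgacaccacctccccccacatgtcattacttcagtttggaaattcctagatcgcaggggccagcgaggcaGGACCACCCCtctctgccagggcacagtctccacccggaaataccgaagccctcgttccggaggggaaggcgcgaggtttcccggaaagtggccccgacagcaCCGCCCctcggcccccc
Cd44, chr2:102901666-102901915, minus strand: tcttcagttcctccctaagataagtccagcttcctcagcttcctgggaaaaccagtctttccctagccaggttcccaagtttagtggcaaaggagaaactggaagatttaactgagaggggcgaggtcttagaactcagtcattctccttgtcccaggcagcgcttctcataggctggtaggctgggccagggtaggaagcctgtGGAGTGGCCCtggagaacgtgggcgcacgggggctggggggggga
Ly6c1, chr15:75048838-75049087, minus strand: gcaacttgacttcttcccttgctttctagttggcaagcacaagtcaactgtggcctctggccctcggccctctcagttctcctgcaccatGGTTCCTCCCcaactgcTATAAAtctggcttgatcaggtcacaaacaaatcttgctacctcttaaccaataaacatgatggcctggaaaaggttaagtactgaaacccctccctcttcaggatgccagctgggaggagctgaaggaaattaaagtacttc
Eng, chr2:32646345-32646594, plus strand: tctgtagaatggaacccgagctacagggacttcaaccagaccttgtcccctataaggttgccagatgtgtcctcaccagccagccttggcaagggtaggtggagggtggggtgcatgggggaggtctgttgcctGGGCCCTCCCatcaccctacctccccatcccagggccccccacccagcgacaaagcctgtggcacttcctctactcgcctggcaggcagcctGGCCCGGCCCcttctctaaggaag

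The motifs were NF-kappa-B (GGG, any 5 bases, then CC, found in 45.8% of 32851 windows of the same length), an interferon response core (GAAA, any 2 bases, then GAAA, 2.98%), AP-1 (TGANTCA, 6.75%), the octamer (ATGCAAA, 4.12%), an E-box (CACGTG, 6.02%), TEAD (GGAATG, 12.6%), a GC box (GGGCGG, 32.7%) and a TATA box (TATAAA, 12.4%). The *Icam1* window held an NF-kappa-B match read on the opposite strand, GGACCACCCC, that begins 120 bases before the start, and an opposite-strand GC box, CCGCCC, that begins 17 bases before it. The *Cd44* window held 1 NF-kappa-B match, GGAGTGGCCC, 45 bases before the start. The *Ly6c1* window held the TATA letters 143 bases before the start, with an NF-kappa-B match, GGTTCCTCCC, upstream of them, and the *Eng* window held 2 NF-kappa-B matches. No 2 of these matches overlapped. A match is to the letters given only and need not be a binding site. A binding site with other letters stays unmarked, and binding was not tested. In the *Icam1* window the stretch tggaaattcc, which differs from the NF-kappa-B letters only at its first base, is unmarked for this reason. Among the 10 windows of the 8 genes (*Alpl* and *Ly6c1* have 2 start sites), 9 held an NF-kappa-B match, which was not tested against the 45.8% of all windows. The 2 *Ly6c1* windows overlap, and all 250 bases of the *Fut4* and *Nt5e* windows lie in annotated exons. The fixed letters of this motif are all G or C. G and C made up 65.2% of the *Icam1* window, 62.4% of that of *Eng*, 56.4% of that of *Cd44* and 48.4% of that of *Ly6c1*, beside a median of 52.4% over all windows.

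At day 3 none of the 10 markers passed the threshold between the knockdowns, while at day 6 *Icam1*, *Thy1*, *Nt5e* and *Ly6a* were lower in the siOct4-labelled libraries, by 36.3% to 45.5%. From day 3 to day 6, *Thy1*, *Icam1* and *Nt5e* more than doubled in siNcor1 (2.20-fold to 2.35-fold) and *Cd44* fell by 36.8%. In the siOct4-labelled libraries *Cd44*, *Ly6a*, *Ly6c1* and *Eng* fell by 33.9% to 59.0% over the same days and no marker rose past the threshold. The day 6 calls of *Nt5e* and *Ly6a*, and the calls of *Ly6c1* and *Eng* between the days, were lost when some single libraries were left out. Of all genes tested, 1.07% passed between the knockdowns at day 3 and 30.7% at day 6, and 34.8% passed between the days in siNcor1 and 52.7% in the siOct4-labelled libraries. The deposited values are log2-cpm, all differences are on that scale, and every adjusted p is from limma with Benjamini-Hochberg adjustment over the 13866 genes tested, with a threshold of 0.05. In these bulk samples fewer cells of a type and less RNA per cell cannot be told apart.

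**Figure D1:**
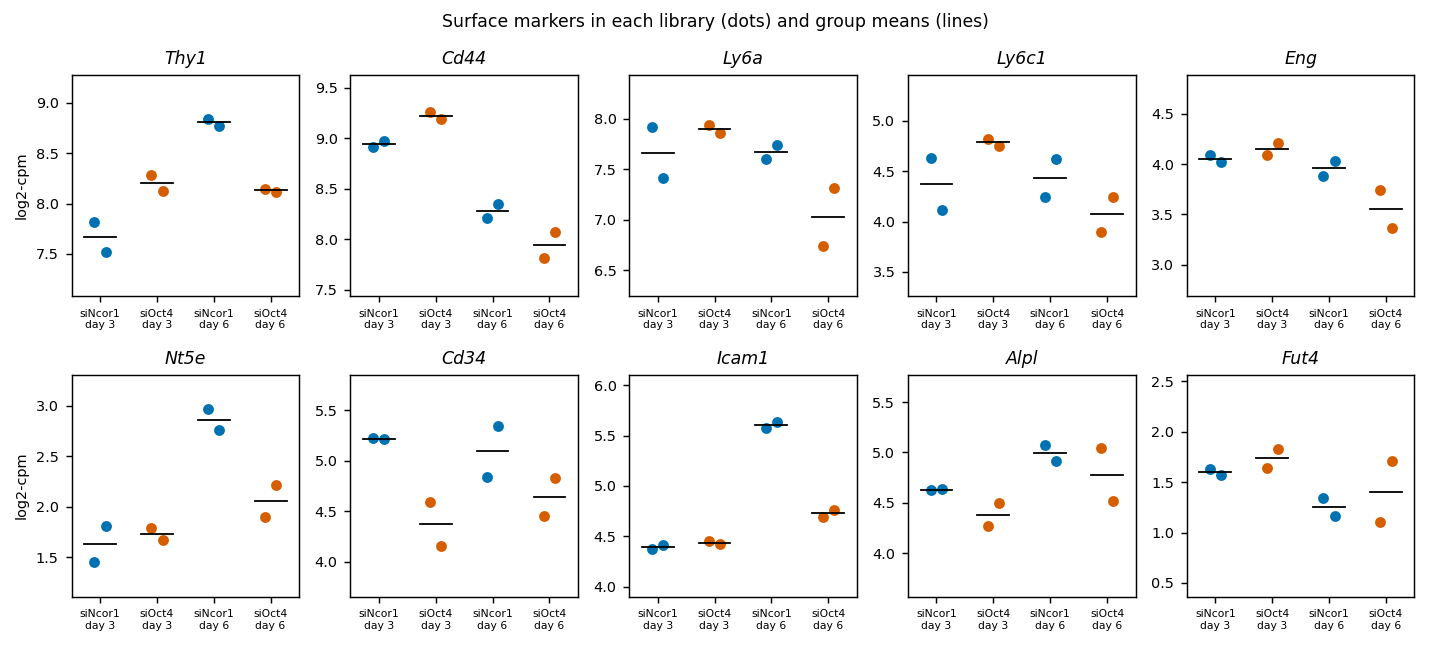
Log2-cpm (y axis, a span of equal length in every panel) of each of the 10 surface markers in the 8 libraries by group (x axis), with a dot for each library and a line at the mean of the 2 replicates. *Thy1* and *Icam1* stood highest in both siNcor1 day 6 libraries (*Thy1* 8.84 and 8.77), and *Cd44* was lower in every day 6 library than in every day 3 library.

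*Thy1* (chr9:44043384-44048579, plus strand) had a log2-cpm of 7.82 and 7.52 in siNcor1 at day 3 and of 8.28 and 8.13 in the siOct4-labelled libraries. Its day 6 values were 8.84 and 8.77 in siNcor1 and 8.15 and 8.11 in the siOct4-labelled libraries. The order of the knockdowns was thus opposite on the 2 days, and the groups did not overlap on either day. At day 3 the difference, siOct4-labelled minus siNcor1, was 0.53 (SE 0.13) and did not pass the threshold (adjusted p = 0.0843). The day 6 difference was −0.68 (SE 0.13, adjusted p = 0.00327), a level 37.4% lower. Within siNcor1 *Thy1* rose 2.20-fold between the days (1.14, SE 0.13, adjusted p = 0.000108). In the siOct4-labelled libraries it moved by −0.073 (adjusted p = 0.664, 95% confidence interval −0.36 to 0.21), a value whose sign turned to 0.14 with quantile normalization and to 0.12 when *Gm26917* was left out of the totals. The change of the knockdown difference from day 3 to day 6 was −1.21 (SE 0.18, adjusted p = 0.00159). Without either siOct4-labelled day 6 library, the day 3 difference passed the threshold (adjusted p = 0.0365 and 0.0373).

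*Cd44* (chr2:102811141-102901665, minus strand) went the other way between the days. Its log2-cpm was 8.92 and 8.97 in siNcor1 and 9.26 and 9.20 in the siOct4-labelled libraries at day 3. By day 6 its values were 8.21 and 8.35 in siNcor1 and 7.81 and 8.07 in the siOct4-labelled libraries. Every day 6 library was below every day 3 library. In siNcor1 *Cd44* fell by 0.66 (SE 0.13, adjusted p = 0.0026). The fall in the siOct4-labelled libraries was larger, −1.29 (SE 0.13, adjusted p = 1.2e-05), and left 41.0% of the day 3 level. On both days the knockdowns were apart, but neither difference passed the threshold (0.28 at day 3, adjusted p = 0.478, and −0.34 at day 6, adjusted p = 0.0667), although the day 6 difference did without siOct4-labelled day 6 replicate 2 (−0.47, adjusted p = 0.0177). The change of the knockdown difference was −0.62 (SE 0.18, adjusted p = 0.0336). That call was lost without any one of 7 of the 8 libraries, with adjusted p between 0.0552 (without siOct4-labelled day 6 replicate 1) and 0.151 (without siNcor1 day 6 replicate 2), and of these 8 settings it was kept only without siOct4-labelled day 6 replicate 2 (adjusted p = 0.00774). It was also lost without *Gm26917* in the totals (−0.51, adjusted p = 0.0567) and without the variance trend (adjusted p = 0.0784).

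*Icam1* (chr9:21015985-21028817, plus strand) stood apart in siNcor1 at day 6. Its log2-cpm at day 3 was 4.37 and 4.42 in siNcor1 and 4.46 and 4.42 in the siOct4-labelled libraries. The day 6 libraries had 5.58 and 5.63 in siNcor1 and 4.70 and 4.76 in the siOct4-labelled libraries. It rose 2.31-fold between the days in siNcor1 (1.21, SE 0.13, adjusted p = 6.2e-05). In the siOct4-labelled libraries the change was 0.29 (SE 0.13, adjusted p = 0.0725), which passed the threshold when the libraries were scaled without *Gm26917* (0.49, adjusted p = 0.00649), with median centring (adjusted p = 0.0323) or with quantile normalization (adjusted p = 0.0334). At day 6 the siOct4-labelled libraries were 45.5% lower (−0.88, SE 0.13, adjusted p = 0.000778), whereas at day 3 the difference was 0.042 with a 95% confidence interval of −0.23 to 0.32. Its change of the knockdown difference was −0.92 (SE 0.18, adjusted p = 0.00522), and it passed the threshold without any one library. Of the 43-base words of the *Icam1* transcripts (the read length), 10.9% also lie in *Gm47079*, an antisense RNA, and since no source used here says whether counting used strand, reads of the pair cannot be told apart.

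**Figure D2:**
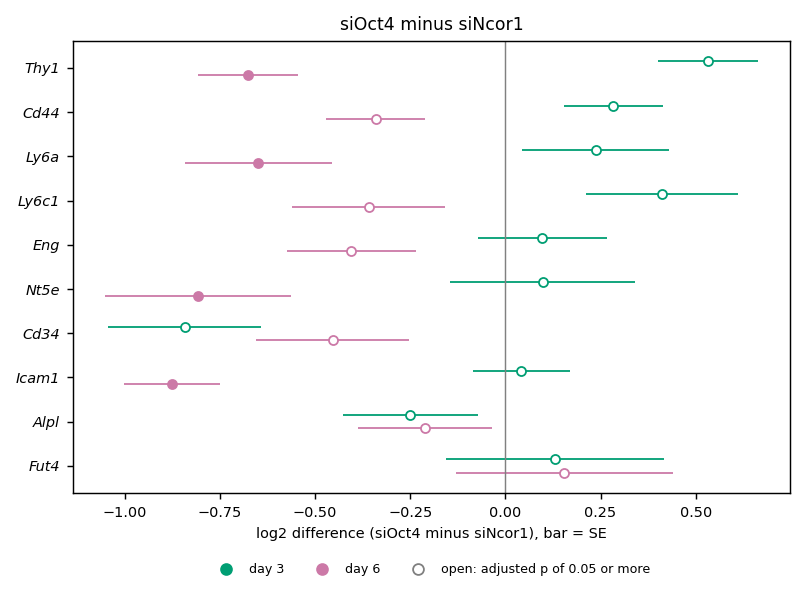
Log2 difference between the knockdowns (x axis, siOct4-labelled minus siNcor1) for each marker (y axis) at day 3 and day 6, with bars of 1 SE and filled points where the adjusted p is under 0.05. At day 3 no point is filled, and at day 6 the 4 filled points, *Icam1*, *Nt5e*, *Thy1* and *Ly6a*, lie between −0.88 and −0.65.

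*Nt5e* (chr9:88327197-88372092, plus strand) rose in siNcor1 as *Icam1* did, at a low level, with 24 to 93 reads per library. Its log2-cpm was 1.45 and 1.81 in siNcor1 and 1.79 and 1.67 in the siOct4-labelled libraries at day 3, and 2.97 and 2.76 in siNcor1 and 1.90 and 2.21 in the siOct4-labelled libraries at day 6. Both siNcor1 day 6 libraries were above the other 6. It rose 2.35-fold between the days in siNcor1 (1.23, SE 0.24, adjusted p = 0.00268), and at day 6 it was 42.9% lower in the siOct4-labelled libraries (−0.81, SE 0.24, adjusted p = 0.0268). The day 6 call was lost without siNcor1 day 6 replicate 1 (adjusted p = 0.148), without siNcor1 day 6 replicate 2 (0.0936) or without siOct4-labelled day 6 replicate 1 (0.102). The change in the siOct4-labelled libraries, 0.33, and the change of the knockdown difference, −0.91, did not pass the threshold (adjusted p = 0.278 and 0.0828), the latter doing so without siOct4-labelled day 6 replicate 2 (adjusted p = 0.0491).

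Both LY6 genes passed the threshold between the days in the siOct4-labelled libraries. *Ly6a* (chr15:74994877-74998031, minus strand) had a log2-cpm of 7.92 and 7.41 in siNcor1 and of 7.94 and 7.86 in the siOct4-labelled libraries at day 3. Day 6 values were 7.60 and 7.75 in siNcor1 and 6.74 and 7.31 in the siOct4-labelled libraries, which were the lowest of all. *Ly6a* fell by 0.88 between the days in the siOct4-labelled libraries (SE 0.19, adjusted p = 0.00252), and moved by 0.011 in siNcor1 (95% confidence interval −0.41 to 0.43). At day 6 it was 36.3% lower in the siOct4-labelled libraries (−0.65, SE 0.19, adjusted p = 0.0253). That call was lost without siNcor1 day 6 replicate 1 (adjusted p = 0.0638), without siNcor1 day 6 replicate 2 (0.157) or without siOct4-labelled day 6 replicate 1 (−0.36, 0.140). The change of the knockdown difference was −0.89 (SE 0.27, adjusted p = 0.0394), and its call was lost without any one of 6 libraries (adjusted p 0.0697 to 0.191), all but siNcor1 day 3 replicate 1 and siOct4-labelled day 6 replicate 2. Without the filter on low values its adjusted p was 0.0532, and without the variance trend it was 0.117 here and 0.0849 at day 6.

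*Ly6c1* (chr15:75044018-75048830, minus strand), a neighbour of *Ly6a*, had a log2-cpm of 4.63 and 4.11 in siNcor1 and of 4.82 and 4.75 in the siOct4-labelled libraries at day 3. At day 6 it was 4.25 and 4.62 in siNcor1 and 3.90 and 4.25 in the siOct4-labelled libraries. The knockdowns did not overlap at day 3 and met at 4.25 at day 6. *Ly6c1* fell by 0.71 between the days in the siOct4-labelled libraries (SE 0.20, adjusted p = 0.0106), a call lost without siOct4-labelled day 3 replicate 1 (adjusted p = 0.0557) or day 6 replicate 1 (0.0552). In siNcor1 it moved by 0.060 (adjusted p = 0.842), and the change of the knockdown difference was −0.77 (SE 0.28, adjusted p = 0.0741), which passed without siNcor1 day 3 replicate 1 (adjusted p = 0.0397) or siOct4-labelled day 6 replicate 2 (0.0268). The log2 ratio of *Ly6a* to *Ly6c1* within a library stayed between 2.84 and 3.36. Of the 43-base words of *Ly6c1*, 37.9% also lie in other genes, 24.7% in *Ly6c2*, which was not analysed here, and of those of *Ly6a* 17.8% lie in *Ly6c1*, so reads could be split between these paralogs.

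*Eng* (chr2:32646595-32682669, plus strand) had a log2-cpm between 3.88 and 4.21 in 6 libraries and was lowest in the siOct4-labelled day 6 libraries, at 3.74 and 3.37. It fell by 0.60 between the days in the siOct4-labelled libraries (SE 0.17, adjusted p = 0.0106), a call lost without siOct4-labelled day 3 replicate 2 (adjusted p = 0.0753), without siOct4-labelled day 6 replicate 2 (−0.41, adjusted p = 0.0585), or when *Gm26917* was left out of the totals (−0.40, adjusted p = 0.0758). In siNcor1 it moved by −0.096 (adjusted p = 0.691), and at day 6 the knockdowns differed by −0.40 (adjusted p = 0.0897). Its change of the knockdown difference was −0.50 (adjusted p = 0.155). Both of these passed without siOct4-labelled day 6 replicate 1 (−0.59, adjusted p = 0.0238, and −0.69, adjusted p = 0.0405). *Eng* overlaps *Fpgs* on the opposite strand and 3 small RNA genes, with which it shares under 0.5% of its 43-base words.

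*Cd34* (chr1:194938819-194961279, plus strand) had a log2-cpm of 5.22 and 5.21 in siNcor1 and of 4.59 and 4.16 in the siOct4-labelled libraries at day 3. At day 6 it was 4.84 and 5.35 in siNcor1 and 4.45 and 4.83 in the siOct4-labelled libraries. It was the member with the largest difference at day 3 (−0.84, SE 0.20), which did not pass the threshold (adjusted p = 0.0738). The call was gained with median centring (adjusted p = 0.0470), when only the day 3 libraries were fitted (0.0278) and without either siOct4-labelled day 6 library (0.0231 and 0.0238). The difference at day 6 was −0.45 (adjusted p = 0.108), and it passed without siNcor1 day 6 replicate 1 (adjusted p = 0.0497) or siOct4-labelled day 6 replicate 2 (0.0367). Between the days it moved by −0.12 in siNcor1 and by 0.27 in the siOct4-labelled libraries, neither past the threshold (adjusted p = 0.664 and 0.287). *Cd34* overlaps the antisense RNA *Gm16897*, which holds 1.48% of its 43-base words.

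*Alpl* and *Fut4*, linked to markers gained on the way to pluripotency, passed the threshold in no comparison with all 8 libraries fitted as deposited. *Alpl* (chr4:137741733-137796384, minus strand) had a log2-cpm of 4.63 and 4.64 in siNcor1 and of 4.27 and 4.49 in the siOct4-labelled libraries at day 3, and of 5.07 and 4.91 in siNcor1 and 5.04 and 4.52 in the siOct4-labelled libraries at day 6. The day 6 libraries were above the day 3 libraries in both knockdowns, by 0.36 in siNcor1 (adjusted p = 0.135, 0.0352 when only the siNcor1 libraries were fitted, and 0.0407 and 0.0388 without siOct4-labelled day 6 replicate 1 or 2). In the siOct4-labelled libraries the difference was 0.40 (adjusted p = 0.0769). It passed when the libraries were scaled without *Gm26917* (0.59, adjusted p = 0.0194), with median centring (0.47, adjusted p = 0.0471) or without siOct4-labelled day 6 replicate 2 (0.66, adjusted p = 0.0035). Between the knockdowns *Alpl* differed by −0.25 at day 3 (adjusted p = 0.740) and by −0.21 at day 6 (adjusted p = 0.388), and the latter passed without siOct4-labelled day 6 replicate 1 (−0.48, adjusted p = 0.0412). *Fut4* (chr9:14748320-14752393, minus strand) had 19 to 49 reads per library and a log2-cpm between 1.10 and 1.83. Its difference between the knockdowns was 0.13 at day 3 and 0.16 at day 6, with 95% confidence intervals of −0.49 to 0.75 and of −0.47 to 0.78, and differences inside those intervals could not be told from the spread between replicates. *Fut9*, which encodes the other SSEA1-building enzyme, had a log2-cpm of 3.25 and 3.73 in siNcor1 and of 1.61 and 2.72 in the siOct4-labelled libraries at day 3, and of 3.65 and 3.86 in siNcor1 and 3.95 and 4.28 in the siOct4-labelled libraries at day 6. It rose by 1.95 in the siOct4-labelled libraries between the days (SE 0.31, adjusted p = 0.000276), while its change in siNcor1 was 0.26 (adjusted p = 0.546) and the change of the knockdown difference was 1.69 (SE 0.44, adjusted p = 0.0196).

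Counted over the 10 markers, 0 passed the threshold at day 3, beside 1.07% of all genes tested (0.375% higher and 0.692% lower), with 2 at an unadjusted p under 0.05 (*Cd34* and *Thy1*) and 0 with voom on the recovered reads. For 8 markers the 2 knockdowns had no overlap at day 3, beside 43.4% of all genes. At day 6, 4 of the 10 passed, all lower in the siOct4-labelled libraries, beside 30.7% of all genes in either direction and 18.6% lower, and 7 did not overlap, beside 64.7%. The median difference of the markers was 0.11 at day 3 and −0.43 at day 6, beside −0.021 and −0.025 over all genes tested, and only *Fut4* had a difference above 0 at day 6. From day 3 to day 6, 4 of the 10 passed in siNcor1 (3 higher, 1 lower), beside 34.8% of all genes (13.8% higher, 20.9% lower), and the days had no overlap for 6 markers, beside 73.1% of all genes. Over the same days 4 of the 10 passed in the siOct4-labelled libraries (all lower), beside 52.7% (22.2% higher, 30.5% lower), and the days had no overlap for 7 markers, beside 74.8%. The change of the knockdown difference passed for 4 of 10 (*Thy1*, *Icam1*, *Ly6a*, *Cd44*), all negative, beside 20.7% of all genes (7.77% positive, 12.9% negative). Its median was −0.70 over the markers and 0.012 over all genes. Scaling the libraries without *Gm26917* moved the median of all genes from −0.079 to 0.11 for the days in the siOct4-labelled libraries, from 0.012 to 0.13 for the change of the knockdown difference and from −0.025 to 0.078 at day 6. The comparisons share libraries in pairs, so their counts are not independent of each other.

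**Figure D3:**
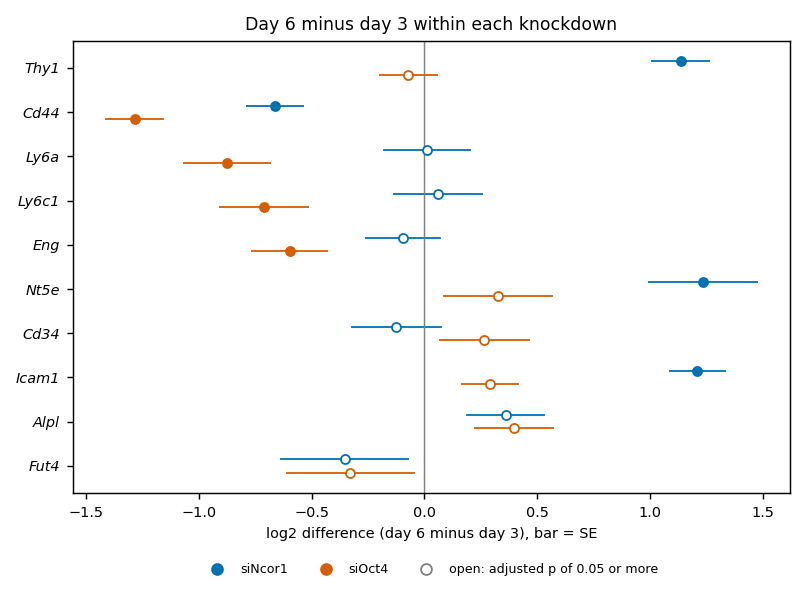
Log2 difference of day 6 minus day 3 (x axis) for each marker (y axis) in siNcor1 and in the siOct4-labelled libraries, with bars of 1 SE and filled points where the adjusted p is under 0.05. *Nt5e*, *Icam1* and *Thy1* have filled points on the right for siNcor1 (1.14 to 1.23), and *Cd44* has filled points on the left for both knockdowns (−0.66 and −1.29).

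A ratio of 2 genes within a library does not depend on how the library was scaled. The log2 ratio of *Icam1* to *Cd44* was −4.54 and −4.55 in siNcor1 and −4.80 and −4.78 in the siOct4-labelled libraries at day 3, and −2.63 and −2.72 in siNcor1 and −3.11 and −3.31 in the siOct4-labelled libraries at day 6. It was thus higher at day 6 than at day 3 in both knockdowns, and higher in siNcor1 than in the siOct4-labelled libraries on both days, with no overlap of any of the 4 groups. The log2 ratio of *Thy1* to *Cd44* was −1.10 and −1.45 in siNcor1 and −0.98 and −1.07 in the siOct4-labelled libraries at day 3, and 0.63 and 0.42 in siNcor1 and 0.34 and 0.039 in the siOct4-labelled libraries at day 6. All 4 day 6 libraries were above all 4 day 3 libraries for this ratio as well. These ratios are of reads per gene, not per length, and are compared between libraries only.

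**Figure D4:**
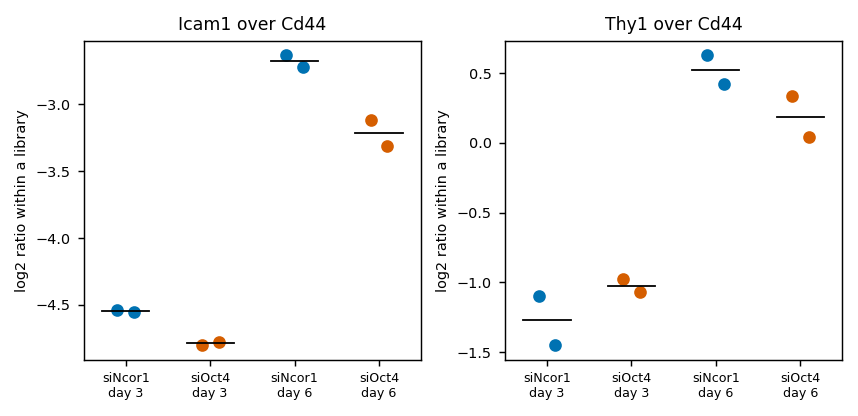
Log2 ratio within a library (y axis) of *Icam1* to *Cd44* and of *Thy1* to *Cd44* by group (x axis), with a dot for each library and a line at the group mean. Both ratios were higher in every day 6 library than in every day 3 library, and the *Icam1* ratio was highest in siNcor1 at day 6 (−2.63 and −2.72).

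Per kilobase of exonic length, *Ly6a*, *Thy1* and *Cd44* were the 3 most abundant markers in every group. In siNcor1 at day 3 the mean was 171 CPM per kilobase for *Ly6a* (SD 42.0, n = 2), 72.7 for *Cd44* and 68.3 for *Thy1*, of which the last 2 overlapped. In siNcor1 at day 6 *Ly6a* was at 170 CPM per kilobase, *Thy1* at 149 and *Cd44* at 45.9, and none of these neighbours overlapped. In the siOct4-labelled libraries at day 6 *Ly6a* (110, SD 30.5) and *Thy1* (93.5) overlapped and *Cd44* was at 36.4 CPM per kilobase. *Ly6c1* came next in all groups, at 10.0 to 16.4 CPM per kilobase. *Alpl*, *Cd34*, *Icam1* and *Eng* lay between 2.86 and 11.1 CPM per kilobase in group means, and *Fut4* and *Nt5e* were below 1 in every library. *Icam1* was the seventh in siNcor1 at day 3, at 4.80 CPM per kilobase, and the fifth at day 6, at 11.1, where it overlapped *Ly6c1*. By mean CPM over all libraries *Cd44* was above 98.3% of the genes tested, *Thy1* above 97.6%, *Ly6a* above 95.1% and *Fut4* above 15.3%.

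Relatives and partners of the markers were examined in lists, each given by how many of its tested genes passed. Of all genes tested, 0.375% were higher and 0.692% lower in the siOct4-labelled libraries at day 3, and 12.1% and 18.6% at day 6. Those shares apply beside the knockdown counts of every list below, and no list was tested against them. Of 20 other stage surface markers, 0 were higher and 4 lower in the siOct4-labelled libraries at day 3, and 1 was higher and 6 lower at day 6. The 4 lower at day 3 were *Epcam* (−2.07), *Cdh1* (−2.02), *Itgb4* (−1.53) and *Prom1* (−1.12). The PDGF receptors *Pdgfra* (−1.14, SE 0.16, adjusted p = 0.000618) and *Pdgfrb* (−0.95, SE 0.12), both fibroblast receptors, and *Cd47* (−0.96, SE 0.13), which inhibits uptake by phagocytes, had the largest day 6 differences. Of 9 tested genes of the LY6/uPAR family outside the members, 2 were lower at day 3, and 1 was higher and 3 lower at day 6. These were *Ly6g6f* (1.39, SE 0.43), *Lynx1* (−0.85, SE 0.15), *Plaur*, the urokinase receptor (−0.67, SE 0.13), and *Ly6e* (−0.62, SE 0.12, adjusted p = 0.00324). *Ly6e* was at 6.82 and 6.75 in siNcor1 and 6.21 and 6.11 in the siOct4-labelled libraries at day 6, and its change of the knockdown difference was −0.87 (SE 0.17, adjusted p = 0.00519). Of 26 genes of GPI anchor synthesis and attachment, which *Thy1*, *Ly6a*, *Ly6c1*, *Nt5e* and *Alpl* need to reach the surface, none passed at day 3, and at day 6 1 was higher (*Pigf*, 0.89, SE 0.19) and 1 lower (*Pigk*, −0.48, SE 0.12), beside 12.1% and 18.6% of all genes.

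Of 13 genes for hyaluronan synthesis, turnover and binding outside *Cd44*, 0 passed at day 3, and 0 were higher and 5 lower in the siOct4-labelled libraries at day 6. *Cemip*, which degrades hyaluronan (−1.73, SE 0.18), *Has2*, a hyaluronan synthase (−1.67, SE 0.37), and *Layn*, a hyaluronan receptor (−0.99, SE 0.15), led them. Of 5 tested ICAM1 relatives, integrins and cytoskeletal linkers, 0 passed at day 3, and 1 was higher (*Spn*, 1.17, SE 0.36) and 3 lower at day 6, with *Vcam1*, a vascular adhesion molecule, at −0.95 (SE 0.21) and *Actn1*, an actin crosslinker, at −0.53 (SE 0.13). Of 16 endoglin partners in TGF-beta and BMP9 signalling, 0 passed at day 3, and 1 was higher and 10 lower at day 6, among them *Tgfbr3* (betaglycan, −1.31, SE 0.11) and the ligands *Tgfb3* (−1.13, SE 0.17) and *Tgfb2* (−1.11, SE 0.14). Of 3 tested CD34 relatives and adaptors, 0 passed at day 3 and 1 was lower at day 6 (*Crkl*, −0.42, SE 0.12).

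Of 10 tested genes of extracellular adenosine outside *Nt5e*, 0 passed at day 3, and 4 were higher and 3 lower in the siOct4-labelled libraries at day 6. The adenosine receptors were on both sides, with *Adora2a* at 1.71 (SE 0.37) and *Adora2b* at −1.22 (SE 0.37), and the ectonucleotidase *Enpp3* was at −1.68 (SE 0.49). Of 5 tested relatives and mineralization partners of *Alpl*, 0 passed at day 3, and 0 were higher and 4 lower at day 6, among them *Enpp1* (−0.96, SE 0.21), *Sp7* (−0.89, SE 0.26) and *Spp1*, osteopontin (−0.82, SE 0.21). Of 12 genes of fucosylation and SSEA1 synthesis outside *Fut4*, 0 passed at day 3, and 2 were higher and 4 lower at day 6. *Fut8*, the core fucosyltransferase (−0.83, SE 0.13), *B4galt1* (−0.82, SE 0.12) and *Tsta3*, which makes GDP-fucose (0.64, SE 0.14), had the largest differences.

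*Icam1* and *Ly6a* are known responders to NF-kappa-B and interferon signalling, and responders to both pathways were therefore listed. Of 15 tested NF-kappa-B-responsive genes, 2 were higher and 0 lower in the siOct4-labelled libraries at day 3, and 0 were higher and 9 lower at day 6. *Ccl2* (1.35 at day 3, adjusted p = 0.0088, and −1.04 at day 6, adjusted p = 0.00287), *Cxcl5* (−1.21 at day 6, SE 0.14) and *Csf1* (−0.96 at day 6, SE 0.15) are secreted chemokines or a macrophage growth factor. From day 3 to day 6 this list had 0 genes higher and 3 lower in siNcor1, beside 13.8% of all genes higher and 20.9% lower. In the siOct4-labelled libraries it had 0 higher and 12 lower, beside 22.2% and 30.5%. Of 10 tested interferon-responsive genes, 0 passed at day 3, and 1 was higher and 8 lower at day 6, among them *Ifit3* (−1.74, SE 0.39) and *Ifih1* (−1.50, SE 0.33). From day 3 to day 6, 4 of these 10 were higher and 0 lower in siNcor1, and 1 was higher and 4 lower in the siOct4-labelled libraries. The part of either pathway in the changes of *Icam1* and *Ly6a* was not tested. The day 6 share of all genes that were lower was 18.6%, and these lists were not tested against it.

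Markers of the cell types that the cultures could hold were summed in each library. The 11 fibroblast markers summed to 8174 to 8301 CPM in siNcor1 and to 10807 to 12325 CPM in the siOct4-labelled libraries at day 3, and to 5919 to 6149 CPM and 3264 to 3467 CPM at day 6. *Col1a1* alone ranged from 819 to 6732 CPM over the libraries. None of the 11 passed between the knockdowns at day 3, and 8 were lower in the siOct4-labelled libraries at day 6, beside 18.6% of all genes. From day 3 to day 6, 5 of the 11 were higher and 2 lower in siNcor1 (median 0.45), although the sum was lower, and 2 were higher and 6 lower in the siOct4-labelled libraries (median −0.59), beside the 13.8% and 20.9%, and 22.2% and 30.5%, of all genes. The order of the knockdowns in this sum was opposite on the 2 days, as in the group means of 7 of the 10 markers (*Thy1*, *Cd44*, *Icam1*, *Ly6a*, *Ly6c1*, *Eng* and *Nt5e*). None of the 7 passed at day 3, where *Icam1*, *Eng* and *Nt5e* differed by 0.042, 0.097 and 0.098 (adjusted p = 0.958, 0.928 and 0.951). The day 3 sign for *Ly6a* and *Nt5e* turned when a siNcor1 day 3 library was left out (−0.016 and −0.080). How many of all genes had an opposite order was not computed. The part of the fibroblast sum in the marker differences was not tested. The 10 epithelial markers summed to 729 to 765 CPM in siNcor1 and to 316 to 352 CPM in the siOct4-labelled libraries at day 6. Of these 10, 5 were lower in the siOct4-labelled libraries at day 3 and 8 at day 6. The 11 pluripotency markers summed to 125 to 133 CPM and 55.2 to 63.8 CPM at day 6, with 2 of 9 tested lower at day 3 and 5 at day 6. Of all genes tested, 0.692% were lower at day 3 and 18.6% at day 6. The epithelial and pluripotency sums were both higher at day 6 than at day 3 in both knockdowns. Their part in the marker differences was not tested.

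*Eng*, *Cd34*, *Ly6a* and *Ly6c1* also mark endothelial cells, and *Icam1*, *Cd44* and *Cd34* blood cells. The endothelial genes *Cdh5* (0 to 5 reads per library), *Pecam1* (1 to 9 reads) and *Emcn* (0 to 2 reads) were near 0 throughout. Others of the endothelial list reached more, namely *Esam* (2 to 25 reads), *Kdr* (1 to 18 reads), *Vwf* (2 to 15 reads), *Erg* (0 to 12 reads) and *Tek* (151 to 745 reads). The endothelial list summed to 41.9 to 45.7 CPM at day 3 and to 18.6 to 23.5 CPM at day 6 over both knockdowns, and *Tek* alone was 15.8 to 43.2 CPM of it. Of the leukocyte list, *Tyrobp* (0 to 5 reads), *Spi1* (0 to 6 reads) and *Adgre1* (0 to 6 reads) were near 0, and the sum at day 6 was 14.7 to 18.8 CPM in siNcor1 and 15.1 to 19.0 CPM in the siOct4-labelled libraries. Other genes of that list were detected, namely *Laptm5* (29 to 161 reads, up to 13.3 CPM), *Lyz2* (19 to 52 reads), *Csf1r* (8 to 33 reads) and *Coro1a* (4 to 32 reads). Of these 4 tested genes, *Coro1a* was higher in the siOct4-labelled libraries at day 6 (1.97, SE 0.41, adjusted p = 0.0049), beside 12.1% of all genes. Between the days 3 of the 4 were higher and 1 lower there, beside 22.2% and 30.5% of all genes. In siNcor1 none of the 4 passed between the days, beside 34.8% of all genes. Their part in the marker differences was not tested. *Tie1*, *Cldn5*, *Ptprc*, *Cd52* and *Fcer1g* were not analysed here.

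**Figure D5:**
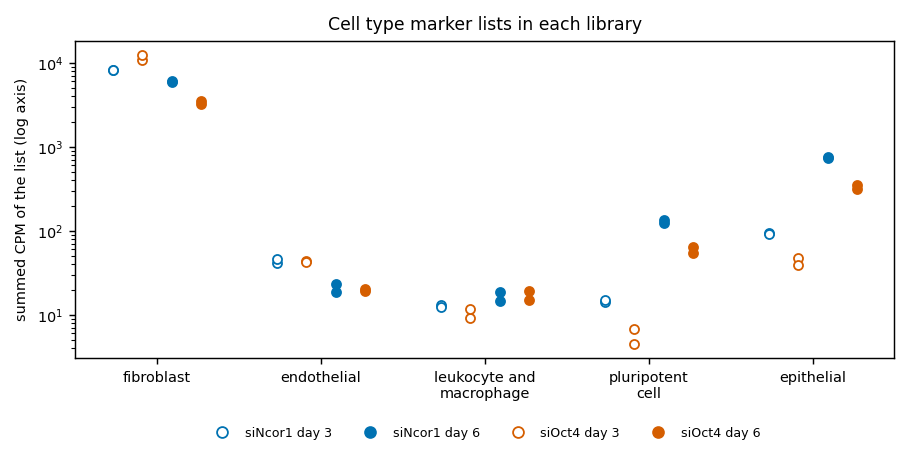
Summed CPM (y axis, log scale) of 5 cell type marker lists (x axis) in each library, with open points for day 3 and filled points for day 6. The fibroblast sum was higher in the siOct4-labelled libraries at day 3 (10807 to 12325 CPM) and lower at day 6 (3264 to 3467 CPM) than in siNcor1, and the endothelial and leukocyte sums were below 50 CPM in every library.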

How the data were processed

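Total RNA was depleted of ribosomal RNA and sequenced as paired 43-base reads, in 8 libraries. Alignment by the authors was to mm10, with STAR 2.5.2b, and they deposited log2-cpm values made with edgeR 3.20.9. The counting tool and its use of strand are not given in the sources used here. The deposited values, checked up to 2000 reads, correspond to whole reads within 0.1 read for 100% of values, and the lowest, −2.87, is 0 reads. No interval here is built from reads.

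The 13866 of 18990 genes that averaged 1 CPM or more were fitted with limma 3.58.1 in R 4.3.3 (lmFit, then eBayes with its variance trend) on the log2-cpm values as deposited, with the 4 groups as means and two-sided Benjamini-Hochberg adjusted p. Groups come from the sample titles. No 2 replicates agreed within sampling noise (chi-square divided by its degrees of freedom, 9.48 to 21.3). Positions and lengths are from GENCODE M21 (GRCm38), with 18969 identifiers matched. Alternatives were other scalings, filters, an offset of 1 CPM, voom on the recovered reads, the replicate block and leaving out each library. The members and gene lists were chosen with earlier results of these data known. Named are all members, the siRNA targets, for each list at most the 3 genes with the largest day 6 difference among those that passed, *Ly6e* and *Fut9* as relatives, and for each member the 2 most alike genes, apart from results not reported here. Cell type markers, *Gm26917* and the 4 other stage surface markers lower at day 3 are named beside results they touch. Figures used matplotlib 3.10.9.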

Additional observations from a re-analysis of the deposited data

Results flagged for a closer look

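The difference between the knockdowns changed from day 3 to day 6 for 4 of the 10 surface markers by the test of that change itself (limma, siOct4-labelled minus siNcor1, day 6 minus day 3, on the log2 scale), beside 20.7% of all genes tested (12.9% negative). For *Thy1* the change was −1.21 (SE 0.18, adjusted p = 0.00159), from 0.53 at day 3 to −0.68 at day 6, and both siOct4-labelled libraries were above both siNcor1 libraries at day 3 and below both at day 6. For *Icam1* it was −0.92 (SE 0.18, adjusted p = 0.00522), from 0.042 to −0.88, and both siOct4-labelled day 6 libraries were below both siNcor1 ones. For *Ly6a* it was −0.89 (SE 0.27, adjusted p = 0.0394), from 0.24 to −0.65. For *Cd44* it was −0.62 (SE 0.18, adjusted p = 0.0336), from 0.28 to −0.34. The calls of *Ly6a* and *Cd44* were lost without any one of 6 and 7 of the libraries, with adjusted p up to 0.191 for *Ly6a* and up to 0.151 for *Cd44*. The summed fibroblast markers also had an opposite order on the 2 days, although none of the 4 surface markers passed at day 3. The part of that sum in these changes was not tested.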

How the results depend on the processing

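Of 89 recomputed counts of markers past the threshold, 77 stayed within 1.5 times the reported count. Only the numbers were compared, and the genes behind a count could change. Between the days in the siOct4-labelled libraries, scaling without *Gm26917* gave 5 markers, with *Alpl* and *Icam1* gained and *Eng* lost. At day 3 the count between the knockdowns rose from 0 to 1 with median centring or with only the day 3 libraries fitted (*Cd34* in both), and lay between 0 and 2 without one library, with 2 (*Cd34*, *Thy1*) without either siOct4-labelled day 6 library. At day 6 the count of 4 lay between 2 and 6 without one library, with 2 without siNcor1 day 6 replicate 2, where the genes that passed fell from 4251 to 1398, and 6 without siOct4-labelled day 6 replicate 2, where 4669 genes passed. The count of 4 for the change of the knockdown difference was 2 without the variance trend, where *Cd44* and *Ly6a* were lost, and lay between 2 and 6 without one library. The voom fit on recovered reads gave 0 markers of 158 genes that passed at day 3 and 4 of 4238 at day 6. Of 880 recomputed marker differences, 806 kept direction and side of the threshold. A mean of at least 10 CPM left out *Nt5e* and *Fut4*. The causes were not tested.

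Directions that turned were of differences that had not passed. *Thy1* between the days in the siOct4-labelled libraries was 0.14 with quantile normalization, 0.12 without *Gm26917* in the totals and −0.15 to 0.0037 without one library. Without one library, *Ly6a* and *Nt5e* at day 3 ranged over −0.016 to 0.49 and −0.080 to 0.28, and *Fut4* and *Alpl* at day 6 over −0.15 to 0.46 and −0.48 to 0.052. Between the days in siNcor1, *Ly6a* ranged over −0.24 to 0.26, *Ly6c1* over −0.20 to 0.32 and *Cd34* over −0.38 to 0.13. The change of the knockdown difference ranged over −0.28 to 0.33 for *Fut4* and −0.23 to 0.30 for *Alpl*.

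The replicate numbers were not shown to pair the libraries. Same-numbered libraries had correlations of their deviations from the group means between −0.040 and 0.281, and no source says that a number marks a shared batch. With the replicate block, 1 marker (*Thy1*, adjusted p = 0.0425) of 222 genes passed at day 3, 5 of 4698 passed at day 6 (*Cd44* gained, adjusted p = 0.0462), and the counts of 4 in the other comparisons did not change. Fitting only the groups compared was not run for the change of the knockdown difference, which needs all 4.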

Other observations

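The genes whose log2-cpm over the 8 libraries was most like that of a marker are given as a description. The libraries share their groups, so most of each correlation is between groups, and no test was made. The highest Pearson correlations of each marker were, for *Icam1*, 0.998 with *Krt16* and 0.996 with *Extl1*, and for *Cd44*, 0.997 with *Cxcr6* and 0.996 with *Uba1*. *Ly6a* was most like *As3mt* (0.991) and *Dnajb4* (0.978), *Thy1* like *Mocos* (0.988) and *Aldh2* (0.985), and *Eng* like *Plxnb2* (0.987) and *Ifi211* (0.987). *Cd34* was most like *Abhd17b* (0.982) and *4930556M19Rik* (0.941), and *Nt5e* like *Pdlim2* (0.981) and *Slc30a2* (0.979). *Fut4* was most like *Arfrp1* (0.971) and *Gm2366* (0.966), *Alpl* like *Zdhhc24* (0.966) and *Slc4a8* (0.964), and *Ly6c1* like *Neu3* (0.956). Among the markers themselves the highest correlations were 0.968 between *Icam1* and *Nt5e*, 0.920 between *Ly6a* and *Ly6c1*, which share sequence, and 0.873 between *Thy1* and *Icam1*. The lowest was −0.846 between *Fut4* and *Alpl*.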
